A study of Mus musculus with 20 samples.

Results

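The growth hormone and IGF1 axis was followed through 10 transcripts, Igf1, Igf1r, Igfals, Ghr, Igfbp2, Igfbp3, Igfbp4, Igfbp5, Socs2 and Cish, which were chosen by name and matched by symbol to the Ensembl identifiers of a count table of 57010 genes. Pituitary growth hormone (GH) acts on its receptor GHR, which signals through the kinase JAK2 and the transcription factor STAT5, and in hepatocytes this drives the secretion of insulin-like growth factor 1 (IGF1) and of the acid-labile subunit encoded by Igfals. Circulating IGF1 travels mainly in a complex of IGF1, IGFBP3 and the acid-labile subunit, other IGF-binding proteins hold or release the hormone in tissues, and IGF1 acts through the receptor IGF1R, which hepatocytes hardly make. Socs2 and Cish are induced by STAT5 and encode inhibitors of the same cascade, so that their transcripts move with recent GH or cytokine signals, and the axis is best known in ageing research because mice lacking parts of it are small and long-lived.

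The animals were male mice of UM-HET3, a genetically heterogeneous cross, and were 12 months old when subcutaneous osmotic minipumps were implanted for 28 days. The 7c group (6 livers and 6 kidneys) received repsox, tranylcypromine, DZNep, CHIR99021, forskolin and TTNPB at 0.1 mg/kg/day each, together with valproate at 1 mg/kg/day. The vehicle group (4 livers and 4 kidneys) received pumps with the solvent alone, 50% DMSO and 50% PEG300, so that the surgery, the pump and the solvent were shared by all animals. The mixture combines inhibitors of the TGF-beta receptor, of GSK3 and of chromatin-modifying enzymes with an activator of adenylyl cyclase and an agonist of retinoic acid receptors, and it was given to ask whether partial chemical reprogramming alters markers of ageing in vivo. Each sample is a biological replicate by its label, but the labels do not state whether a liver and a kidney with the same treatment and number came from the same mouse.

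The 20 libraries held 27855849 to 64872451 counts, and in liver every 7c library (28383359 to 30571119) was smaller than every vehicle library (31670440 to 34153084). The tissue labels held against their markers. The hepatocyte transcript Alb stood at 49310 to 77877 CPM (counts scaled to a common library total, with TMM factors within a tissue) in liver and at 8.69 to 44.0 CPM in kidney, while the proximal tubule transcript Kap and the loop of Henle transcript Umod had 0 counts in every liver. Transcripts of 2 other cell types stood apart. The summed level of 7 skeletal muscle genes was 736 CPM in 7c liver replicate 6 and 1.79 CPM or less in the other livers, and the summed level of 7 adipocyte genes was 58.5 to 153.5 CPM in the 7c kidneys against 37.4 to 49.6 CPM in the vehicle kidneys. Fabp4, the most abundant of the adipocyte genes in kidney, averaged 54.9 CPM over all kidneys and made up much of that sum. All 10 axis transcripts passed the filter for testing (10 counts or more in 50% or more of a tissue's libraries) in both tissues, Igfbp2 in kidney with only 6 to 26 counts per library.

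No axis transcript passed the threshold (Benjamini-Hochberg adjusted p of 0.05, edgeR's quasi-likelihood test over all genes tested) for 7c against vehicle, neither in liver nor in kidney. In liver 0 of the 10 were called against a background of 0.00666% of 15012 genes, in kidney 0 of the 10 against 0.00% of 17749 genes, and for the difference between the 2 tissues in their response 0 of the 10 against 0.00706% of 14163 genes. At an unadjusted p under 0.05 there was 1 axis transcript in liver (Cish) and none in kidney or in the difference between tissues, where 3.76%, 2.61% and 2.49% of all genes tested stood below that value. DESeq2 and edgeR's likelihood ratio test also called 0 of the 10 in each of the 3 comparisons, as did limma-voom in the liver and in the kidney. In bulk tissue a lower transcript level can reflect fewer cells of a type or less RNA per cell, which cannot be told apart here, and the p-values rest on 6 against 4 samples.

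**Figure D1:**
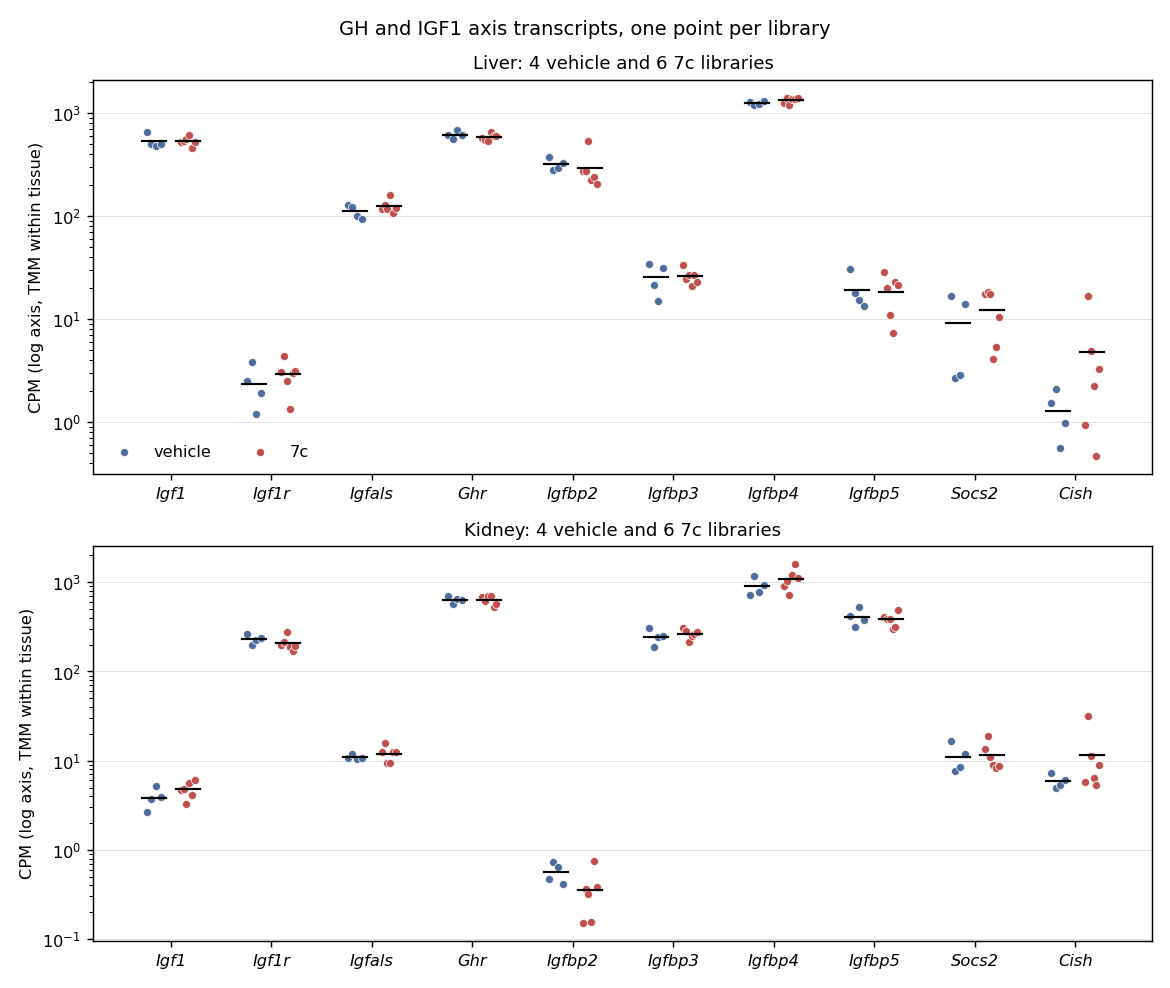
Level of each of the 10 transcripts in every library, in CPM on a log axis with TMM scaling within a tissue, for liver (top) and kidney (bottom). Points are libraries (4 vehicle, 6 7c) and black bars are group means; the vehicle and 7c points overlap for most genes, and Cish in liver runs from 0.469 to 16.7 CPM.

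The ligand Igf1 (ENSMUSG00000020053, GRCm39 chr10:87693642-87772904, plus strand) was abundant in liver, and the interval around its difference there was narrow. The vehicle livers stood at 652, 499, 480 and 497 CPM in replicates 1 to 4, and the 7c livers ranged from 462 to 610 CPM with a median of 532 CPM. Vehicle replicate 1 was the highest of all livers, and 5 of 6 7c livers lay within the vehicle range. The log2 difference of 7c minus vehicle was 0.01 (SE 0.109, 95% interval -0.22 to 0.25, adjusted p = 0.9996). In kidney Igf1 was low, at 2.67, 3.73, 5.14 and 3.91 CPM in the vehicle samples and 3.23 to 6.05 CPM (median 4.76) in the 7c samples. The kidney groups overlapped, with 2 of 6 7c samples above the vehicle range, and the log2 difference was 0.30 (SE 0.226, adjusted p = 0.997), with 0.16 without vehicle replicate 1 and 0.47 without vehicle replicate 3.

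Ghr (chr15:3347235-3613024, minus strand), the receptor that starts the axis, was among the steadiest of the 10. The vehicle livers gave 615, 562, 684 and 605 CPM and the 7c livers 536 to 654 CPM (median 581). The 7c livers overlapped the vehicle range except for 2 that lay below it, with a log2 difference of -0.08 (95% interval -0.27 to 0.11) that was -0.024 without vehicle replicate 3. The vehicle kidneys gave 709, 569, 642 and 626 CPM and the 7c kidneys 534 to 705 CPM (median 649), a log2 difference of -0.01 (-0.25 to 0.24).

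Igf1r (chr7:67601518-67883416, plus strand), the receptor for the ligand, was a kidney transcript. It stood at 264, 197, 228 and 237 CPM in the vehicle kidneys and at 171 to 274 CPM (median 197) in the 7c kidneys, where 3 of 6 lay below the vehicle range and 1 above it. The log2 difference in kidney was -0.17 (SE 0.138, adjusted p = 0.997), and it ran from -0.26 without 7c replicate 3 to -0.096 without vehicle replicate 1 and was -0.094 with a replicate block. The block had a term for each replicate number. The 7c replicates 5 and 6 had no vehicle sample of their number and did not inform the value with the block. In liver Igf1r had 40 to 136 counts per library, or 1.19 to 3.81 CPM in the vehicle and 1.35 to 4.37 CPM in the 7c group, and at that depth the 95% interval of the log2 difference reached from -0.46 to 1.08. Leaving out vehicle replicate 3 or vehicle replicate 2 gave 0.092 and 0.65.

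Among the carriers, Igfals (chr17:25084971-25100984, plus strand) stood at 129, 121, 101 and 93.2 CPM in the vehicle livers and at 107 to 160 CPM (median 118) in the 7c livers. Only 7c liver replicate 4 exceeded the vehicle range, and the log2 difference was 0.16 (SE 0.127, adjusted p = 0.9996). It was 0.080 without that library, 0.090 without vehicle replicate 4 and 0.24 without vehicle replicate 1. The vehicle kidneys gave 10.7, 11.9, 10.3 and 10.8 CPM and the 7c kidneys 9.30 to 15.6 CPM (median 12.4), with 4 of 6 above the vehicle range and 2 below it, a log2 difference of 0.13 (SE 0.159) that was 0.040 without 7c replicate 2 and 0.067 with a replicate block. Igfbp3 (chr11:7156086-7164179, minus strand), the other protein of the circulating complex, gave 15.0 to 34.7 CPM in the vehicle livers and 20.9 to 33.3 CPM in the 7c livers, so that the 7c values lay inside the vehicle range. Its kidney level was 188 to 305 CPM in vehicle and 216 to 306 CPM in 7c samples. The log2 differences of Igfbp3 were 0.02 in liver and 0.11 in kidney, with adjusted p of 0.9996 and 0.997 in edgeR, and the kidney value was 0.0078 without vehicle replicate 2 and 0.23 without vehicle replicate 1.

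Igfbp4 (chr11:98932064-98945218, plus strand), whose product inhibits IGF action until it is cleaved by the protease PAPP-A, was the most abundant of the 10 in CPM in both tissues. It ranged from 1203 to 1313 CPM in the vehicle and 1192 to 1407 CPM in the 7c livers, a log2 difference of 0.08 (95% interval -0.10 to 0.25). In kidney it ranged from 722 to 1176 CPM and from 720 to 1587 CPM, a log2 difference of 0.28 (-0.17 to 0.73). That value was 0.15 without 7c replicate 5, 0.44 without vehicle replicate 2 and 0.11 with a replicate block. Igfbp5 (chr1:72897091-72914043, minus strand), a binding protein made by mesenchymal and muscle cells among others, gave 300.1 to 527 CPM over all kidneys and 7.28 to 30.7 CPM over all livers, and the groups overlapped in both tissues. Its log2 differences were -0.06 (SE 0.333) in liver and -0.09 (SE 0.168) in kidney.

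Igfbp2 (chr1:72863606-72891634, plus strand), a binding protein that rises in liver on fasting and falls with GH, was lower in most 7c samples without passing the test. The vehicle livers gave 372, 278, 296 and 327 CPM. The 7c livers gave 275, 274, 535, 224, 239 and 205 CPM in replicates 1 to 6. Of these, 5 of 6 lay below every vehicle liver, while replicate 3 lay above all of them. The log2 difference in liver was -0.13 (SE 0.227, adjusted p = 0.9996), it ran from -0.38 without 7c replicate 3 to -0.041 without 7c replicate 6 and was -0.044 with a replicate block, past the threshold in none of these, and the exact permutation p over the 210 splits of 10 samples into 6 and 4 was 0.495 (two-sided). In kidney 5 of 6 7c samples lay below the vehicle range of 0.419 to 0.724 CPM, at 0.151 to 0.384 CPM, and 7c replicate 5 had 24 counts and the highest level. The counts of those 5, 6 to 16, overlapped the 12 to 26 counts of the vehicle kidneys, so that the order rests on few reads and on the scaling. The kidney log2 difference was -0.69 (SE 0.490, adjusted p = 0.997 in edgeR), with an exact permutation p of 0.1, and 0.00476 is the smallest p that these splits can give. It was -1.05 without 7c replicate 5, -1.25 with a replicate block and -0.96 by limma-voom, past the threshold in none of these. The block gave no weight to 7c replicates 5 and 6, and thus none to the high kidney. The high liver and the high kidney carried different replicate numbers.

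In liver, the feedback genes Cish and Socs2 had the widest spread of the 10. Cish (ENSMUSG00000032578, chr9:107173225-107179983, plus strand), an early target of STAT5 that encodes a suppressor of cytokine signalling, gave 1.55, 2.09, 0.568 and 0.994 CPM in the vehicle livers. The 7c livers gave 0.950, 16.7, 4.92, 2.24, 0.469 and 3.32 CPM in replicates 1 to 6. Of these, 4 of 6 lay above the vehicle range and 1 below it, and the group included both the highest and the lowest liver. The log2 difference was 1.87 (SE 0.809, 95% interval 0.13 to 3.62, unadjusted p = 0.0370, adjusted p = 0.9996 in edgeR), and the exact permutation p was 0.281. Without 7c replicate 2 the log2 difference was 0.87, and by limma-voom on all samples it was 1.18.

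In kidney Cish stood at 7.35, 4.93, 5.35 and 6.14 CPM in the vehicle samples. The 7c kidneys gave 5.80, 31.6, 11.4, 6.47, 5.32 and 8.89 CPM, with 3 of 6 above the vehicle range and none below it. The log2 difference was 0.96 (SE 0.466, 95% interval -0.05 to 1.97, adjusted p = 0.997 in edgeR, exact permutation p = 0.229), and it was 0.35 without 7c replicate 2 and 0.61 by limma-voom. The response in liver minus that in kidney was 0.90 (SE 0.967, adjusted p = 0.9999 in edgeR), with 0.52 without 7c replicate 2 and 1.34 without vehicle replicate 2.

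Socs2 (chr10:95219523-95253929, minus strand), the inhibitor whose loss causes overgrowth in mice, gave 16.8, 2.66, 2.90 and 14.1 CPM in the vehicle livers. The 7c livers gave 17.6, 18.4, 17.4, 4.13, 5.42 and 10.5 CPM. Livers of both groups thus stood either at 5.42 CPM or less (4 of 10) or at 10.5 CPM or more (6 of 10), and the low livers were 2 of 4 vehicle and 2 of 6 7c samples. The log2 difference was 0.43 (SE 0.552, adjusted p = 0.9996 in edgeR, exact permutation p = 0.329). It was 0.13 without vehicle replicate 2, 0.14 without vehicle replicate 3, 0.73 without vehicle replicate 4 and 0.91 without vehicle replicate 1, and it was 0.74 by limma-voom and 0.96 with a replicate block, past the threshold in none of these. The vehicle kidneys gave 16.4, 7.63, 8.53 and 11.8 CPM and the 7c kidneys 8.17 to 19.1 CPM (median 9.99), with a log2 difference of 0.06 (SE 0.274).

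**Figure D2:**
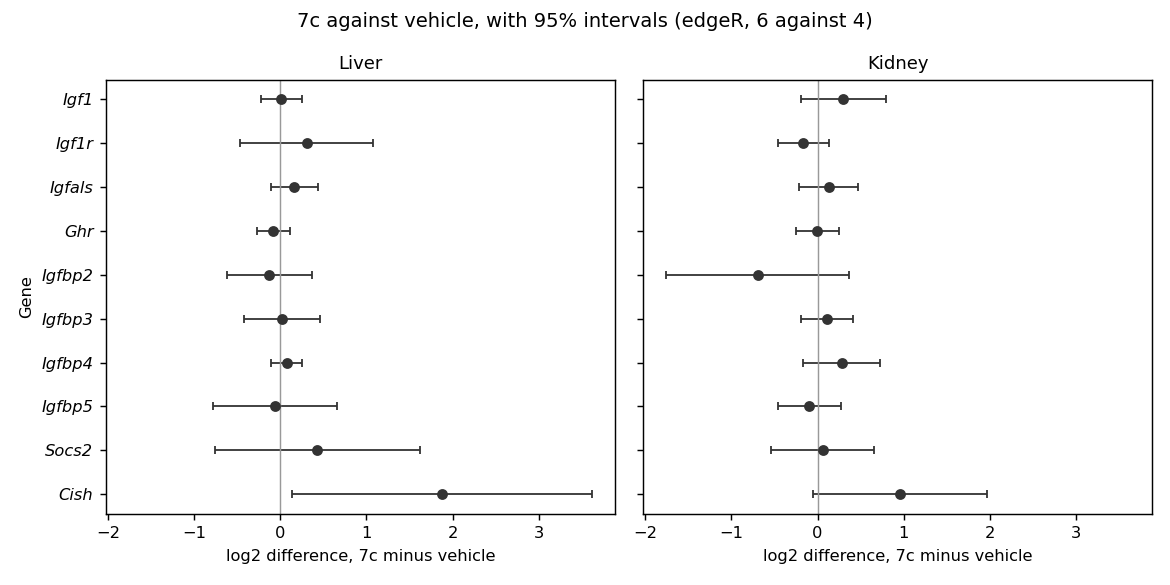
Log2 difference of 7c minus vehicle for each transcript in liver (left) and kidney (right), with 95% intervals from edgeR on 6 against 4 samples. The interval of Igf1 in liver spans -0.22 to 0.25, that of Cish in liver spans 0.13 to 3.62 and is the only one that leaves out 0, and no gene passed the adjusted threshold.

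The adipocyte and muscle signals of single groups were set beside these values. The adipocyte sum was higher in 6 of 6 7c kidneys than in every vehicle kidney, with all 7 genes of the list passing the filter and Adipoq at 0.111 to 11.4 CPM, and its part in the kidney values of the axis was not tested. The 5 defining genes Adipoq, Lep, Plin1, Cfd and Retn each had a median under 10 counts in liver. Without the liver that held muscle transcripts, 7c replicate 6, the liver differences of 6 of the 10 moved by less than 1.5 times. Those of Igfbp2 (from -0.13 to -0.041), Igfbp5 (from -0.06 to -0.10), Igfbp3 (from 0.02 to 0.05) and Igf1 (from 0.01 to 0.02) moved by more. The smaller totals of the 7c livers were scaled by TMM, and their part in the liver values was not tested.

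The distribution between the tissues was the strongest contrast. In the vehicle mice 9 of the 10 transcripts differed between liver and kidney at an adjusted p under 0.05, 5 higher in liver and 4 higher in kidney, against a background of 53.4% of 17245 genes. Levels between genes were compared as CPM per kb of the canonical transcript, with TMM scaling over both tissues. In vehicle liver the order was Igfbp4 (405 CPM per kb), Igfbp2 (298), Ghr (169), Igf1 (92.9), Igfals (51.3), Igfbp3 (11.7), Socs2 (4.40), Igfbp5 (3.98), Cish (0.444) and Igf1r (0.235). Neighbours in that order did not overlap among the 4 vehicle livers, except that Socs2 overlapped Igfbp3 and Igfbp5, and Cish overlapped Igf1r. In vehicle kidney the order was Igfbp4 (188 CPM per kb), Ghr (113), Igfbp3 (72.6), Igfbp5 (54.2), Igf1r (14.8), Socs2 (3.49), Igfals (3.25), Cish (1.30), Igf1 (0.435) and Igfbp2 (0.341). There Igfbp3 overlapped Igfbp5, Socs2 overlapped Igfals and Igf1 overlapped Igfbp2. With the length of all exons in place of the canonical transcript, several places changed. In kidney Ghr fell from place 2 to place 4 and Igfbp3 rose to place 2, and Socs2, whose level per kb became 0.733 in liver and 0.580 in kidney, fell below Igfbp5 in liver and below Igfals and Cish in kidney.

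**Figure D3:**
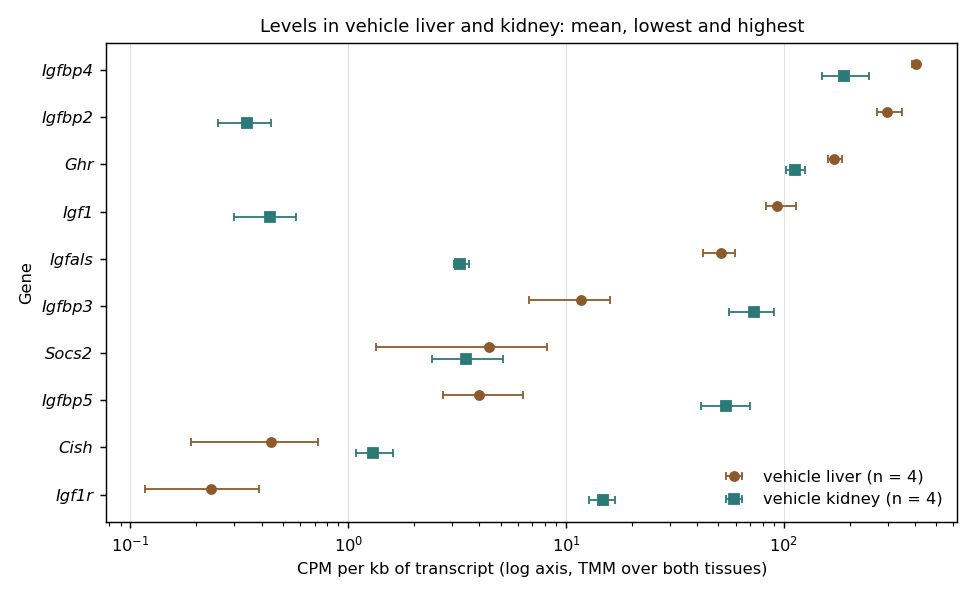
Level per kb of transcript in vehicle liver (circles) and vehicle kidney (squares) on a log axis, with TMM scaling over both tissues. Symbols are means and bars run from the lowest to the highest of 4 samples; Igfbp2 stands at 298 in liver and 0.341 in kidney, while Igf1r stands at 0.235 in liver and 14.8 in kidney.

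Ligand and receptor were divided between the organs. Igf1 was higher in liver by 7.74 on the log2 scale (SE 0.260, adjusted p = 2.1e-09 in edgeR), a ratio of 213, and Igf1r was higher in kidney, with a log2 difference of liver minus kidney of -5.98 (SE 0.336, adjusted p = 7.2e-08). Igfals was higher in liver by 3.98 on the log2 scale (SE 0.162, adjusted p = 6.7e-09). The kidney reads of Igf1 and Igfals did not keep the ratio to Alb that liver shows: Igfals gave 1.50 to 2.53 reads per 1000 Alb reads in liver and 243 to 1425 in kidney, and Igf1 gave 6.50 to 10.5 in liver and 60.6 to 537 in kidney. For Igfbp2 the ranges overlapped, with 2.63 to 8.72 reads per 1000 Alb reads in liver and 7.01 to 55.3 in kidney. Ghr differed little, by 0.58 on the log2 scale (SE 0.131, adjusted p = 0.00296), and this call rested on the scaling, since the difference was -0.02 (adjusted p = 0.901) with library size alone. That scaling moved the median of all genes from -0.06 to -0.66.

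The binding proteins split by tissue as well. Igfbp2 was higher in liver by 9.75 on the log2 scale (SE 0.239, adjusted p = 5.2e-10), the widest contrast of the 10, and Igfbp4 by 1.11 (SE 0.178, adjusted p = 0.000304), or by 0.52 (adjusted p = 0.0108) with library size alone. Igfbp3 and Igfbp5 were higher in kidney, with log2 differences of liver minus kidney of -2.63 (SE 0.264, adjusted p = 8.1e-06) and -3.77 (SE 0.289, adjusted p = 8.9e-07). Igfbp2 and Igfbp5 are neighbours on chromosome 1, transcribed towards each other with 5456 bases between their annotated ends, and their tissue differences had opposite signs. Of the feedback genes, Cish was higher in vehicle kidney (log2 difference of liver minus kidney -1.55, SE 0.397, adjusted p = 0.00647). In the 7c mice its difference was -0.66 (adjusted p = 0.406 in edgeR). The difference between the 2 tissues in their response to 7c was not called for Cish (0.90, SE 0.967, adjusted p = 0.9999 in edgeR). Socs2 did not pass the threshold between vehicle liver and kidney (0.34, SE 0.556, adjusted p = 0.640). The other 8 of the 10 kept their direction and call in the 7c mice.

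The spread between animals differed among the members. Within groups, the SD of log2 CPM in liver was 1.46 for Cish and 1.14 for Socs2, larger than that of 98.1% and 94.0% of the 15012 genes tested, while Igfbp4 (0.0835) and Ghr (0.107) varied more than only 1.05% and 4.15% of them. These shares are over genes of all levels. Cish had 13 to 520 counts per liver and Igfbp4 35877 to 44892, and the part of the level in the spread was not tested. Igf1 (0.164) and Igfals (0.208) lay below the median of all genes, 0.302. In kidney Cish (0.770) and Socs2 (0.478) varied more than 86.5% and 67.3% of 17749 genes, and Igfbp2, with its few counts, had an SD of 0.625. From the lowest to the highest library, Cish covered 35.6-fold in liver and 6.42-fold in kidney, against 1.18-fold for Igfbp4 and 1.41-fold for Igf1 in liver.

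**Figure D4:**
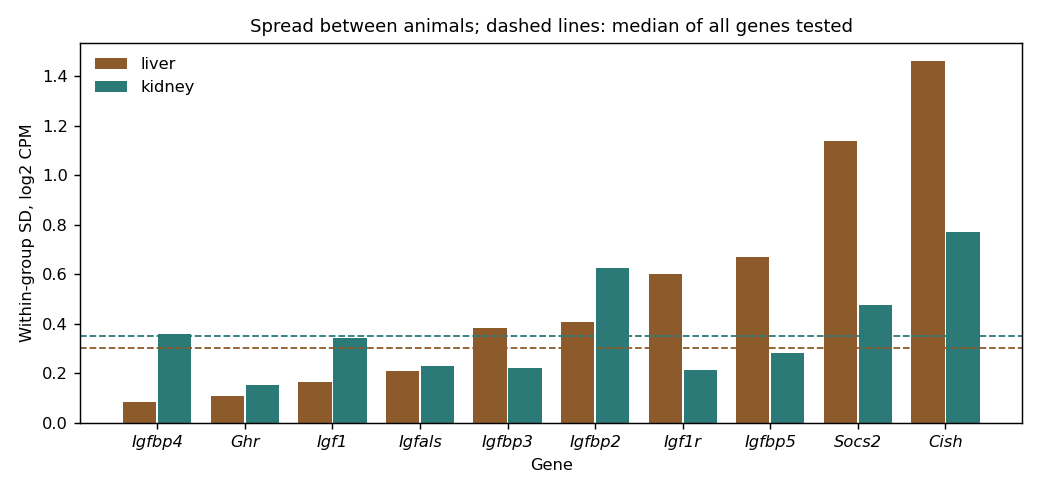
Within-group SD of log2 CPM for each transcript in liver and kidney, with treatment means removed; bars start at 0 and dashed lines mark the median of all genes tested (0.302 in liver, 0.349 in kidney). Cish (1.46) and Socs2 (1.14) in liver stand highest, Igfbp4 (0.0835) and Ghr (0.107) in liver lowest.

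The promoters of the members were searched for the letters TTCNNNGAA, the palindrome that STAT5 dimers can bind and that reads the same on both strands, in RefSeq windows from 250 bases before to 50 bases after a transcription start (GRCm38.p6). At least 1 copy was found in 8.3% of all 32851 windows and at least 2 copies in 0.457%. Of the 10 genes, 9 had 13 windows between them (Socs2 had none), and 3 of the 13 windows held the letters, 1 of Cish with 2 copies at the start and 2 of the 3 of Igfals with 1 copy each. The stretches below show the copies nearest to a start, Cish at chr9:107296509-107296688 and Igfals at chr17:24878081-24878260, both on the plus strand and with the copies in capitals. The copy of the third window, of Igfals, lies farther from its start at chr17:24877608-24877616 and is not shown. A match is a description of the letters and not a measured site.
Cish: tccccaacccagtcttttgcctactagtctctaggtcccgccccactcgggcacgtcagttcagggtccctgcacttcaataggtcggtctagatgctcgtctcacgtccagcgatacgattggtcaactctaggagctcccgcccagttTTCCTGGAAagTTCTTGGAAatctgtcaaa
Igfals: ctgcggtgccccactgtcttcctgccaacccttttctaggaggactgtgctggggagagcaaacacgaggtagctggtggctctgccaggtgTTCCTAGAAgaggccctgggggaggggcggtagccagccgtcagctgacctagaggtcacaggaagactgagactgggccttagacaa
The Cish copies lie at chr9:107296659-107296667 and chr9:107296670-107296678, separated by 2 bases.

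Liver and kidney levels of Cish and of Socs2 were correlated across samples, while no correlation of the other 8 members passed the threshold. Libraries of the same treatment and replicate number were set side by side in liver and kidney, a relation chosen after the data were seen, in a family of 10 genes. For Cish, Pearson's r was 0.892 (permutation p = 0.00063, adjusted p = 0.0063, n = 10) and Spearman's rho was 0.794 (permutation adjusted p = 0.0412). The 2 samples farthest from the median in liver left an r of 0.763 when removed, the r within the 6 number-matched 7c samples was 0.935, and it was 0.872 with the group means removed. For Socs2, r was 0.817 (permutation p = 0.00572, adjusted p = 0.0286, n = 10) and rho was 0.879 (permutation adjusted p = 0.0139), with 0.777 after the 2 farthest samples were removed and 0.839 with the group means removed. Since the livers fall into 4 low and 6 higher samples for Socs2, r was also taken within the 6 higher ones, where it was 0.782.

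Over all 14163 genes tested in both tissues the median r was 0.05, and r was as high as that of Cish or higher for 0.473% of genes and as high as that of Socs2 or higher for 1.23%. The libraries with the number 2 of the 7c group were the highest in both organs for both genes. That pair also had the highest correlation of its deviations from the group means over all genes, 0.259 against 0.011 to 0.213 in the other 9 pairs, and its part in the relation was not tested beyond leaving it out. Without them, r for Cish was 0.775 with a permutation adjusted p of 0.0603, just short of the threshold. For Socs2, r was 0.779 to 0.865 with any replicate number left out, and its adjusted permutation p was above 0.05 without 7c replicate 2 (0.0603), 4 (0.0516) or 5 (0.0567) or vehicle replicate 2 (0.0689). The other 8 genes had r from -0.34 (Igf1) to 0.55 (Igfbp4), with permutation adjusted p of 0.340 or more.

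**Figure D5:**
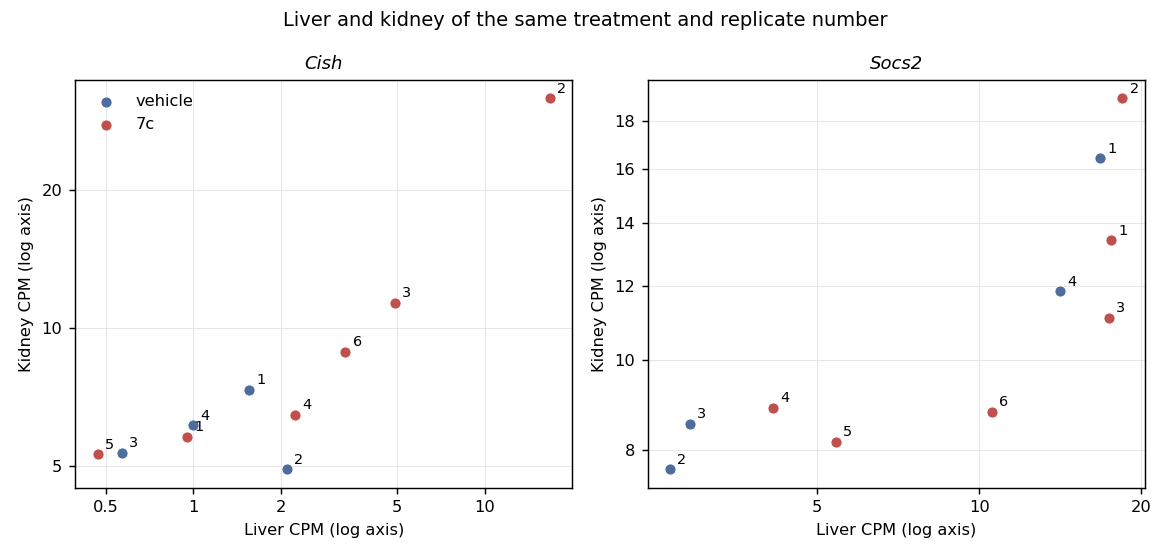
Level in liver (horizontal) and kidney (vertical), in CPM on log axes, of Cish (left) and Socs2 (right), for libraries of the same treatment and replicate number, which is printed beside each point. 7c number 2 is the highest in both organs for both genes (Cish 16.7 and 31.6 CPM, Socs2 18.4 and 19.1 CPM).

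Within a tissue, 8 relations between members were tested across 10 samples, and none passed the threshold after adjustment. Igf1 and Igfals in liver gave the highest r, 0.733 (permutation p = 0.0156, adjusted p = 0.105), with a rho of 0.794 (permutation adjusted p = 0.0698), an r of 0.586 without the 2 farthest samples and 0.850 within the 6 7c livers. Cish and Socs2 gave an r of 0.671 in kidney (permutation p = 0.0262, adjusted p = 0.105, rho 0.697) and of 0.422 in liver (permutation adjusted p = 0.544, rho 0.370). The kidney r was 0.343 without the 2 farthest samples and 0.316 without 7c replicate 2, and the liver r was 0.213 without the 2 farthest. Igf1 and Socs2 in liver gave 0.383 and Igf1 and Ghr in liver 0.025, both with permutation adjusted p of 0.544 or more. Without the 2 farthest samples the first was 0.720 and the second -0.70, and with 1 sample left out the first ran from 0.263 without vehicle replicate 1 to 0.630 without 7c replicate 4. Within the 6 7c livers the first was -0.013 and the second 0.240.

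The genes most like a member across the 10 livers, among 15012, were named by Pearson's r as a description. For Igf1 these were Calr, the chaperone calreticulin (0.929), Tmem33 (0.890) and Gjc3 (0.887), and for Socs2 Gde1 (0.917), B3galt6 (0.909) and Naa10 (0.900). For Cish they were 1700025G04Rik (0.950), the hedgehog-binding protein gene Hhip (0.918) and Irak4 (0.917), a kinase of Toll-like receptor signalling. The points share their libraries, and in kidney the r of the same genes was -0.39 for Calr with Igf1, -0.41 for Gde1 with Socs2 and 0.27 for 1700025G04Rik with Cish.

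The other genes of the pathway were counted in 5 lists, and 0 genes of any list passed the threshold for 7c in either tissue. Of 12 GH receptor signalling genes tested in liver, 6 were higher and 6 lower in 7c samples, with a median log2 difference of 0.00 against 0.00 over all genes, and in kidney 5 were higher and 7 lower (median -0.03 against -0.01). Named in liver was Sirpa, a membrane glycoprotein that JAK2 phosphorylates, with a log2 difference of 0.26 (0.15 without vehicle replicate 2, 0.43 without 7c replicate 6). In kidney the lowest unadjusted p were those of the phosphatase genes Ptpn1 (log2 difference 0.17, 0.085 without vehicle replicate 2) and Ptpn6 (-0.17, and -0.092 without vehicle replicate 2).

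Of the other IGF ligands, receptors, binding proteins and their proteases, 6 of 12 were tested in liver (3 higher, 3 lower) and 11 of 12 in kidney (4 higher, 7 lower, median -0.17). Igf2 was tested in neither tissue. In liver the named genes were Insr, the insulin receptor (log2 difference -0.11, and -0.061 without 7c replicate 1), and the protease gene Htra1, whose log2 difference of 0.35 was 0.0038 without 7c replicate 1. Pappa, which encodes the protease PAPP-A, stood in the 7c kidneys at 2.12 ± 0.839 CPM (SD, n = 6) and in the vehicle kidneys at 3.99 ± 1.52 CPM (n = 4), a log2 difference of -0.92 (SE 0.343, adjusted p = 0.997 in edgeR, exact permutation p = 0.0571), with 3 of 6 7c samples below the vehicle range. Stc1, which encodes an inhibitor of PAPP-A, gave -0.74 (SE 0.344, adjusted p = 0.997). Pappa and Stc1 were named for the lowest unadjusted p of the list in these same kidneys, so that their values restate that choice.

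Of 18 genes of insulin and IGF1 receptor signalling, 9 were higher and 9 lower in liver, and 6 were higher and 12 lower in kidney (median -0.07). Akt1, the kinase downstream of IGF1R and the insulin receptor, stood in the 7c livers at 58.8 ± 5.60 CPM (SD, n = 6) and in the vehicle livers at 49.8 ± 1.68 CPM (n = 4). All 6 7c livers lay above every vehicle liver, the log2 difference was 0.24 (SE 0.0918, unadjusted p = 0.0210, adjusted p = 0.9996 in edgeR), and the exact permutation p was 0.00952, unadjusted for the genes of the lists. Pik3ca, a catalytic subunit of PI3-kinase, gave log2 differences of -0.21 in liver and -0.18 in kidney, and Tsc1, an inhibitor of mTORC1, gave -0.17 in kidney (-0.11 without vehicle replicate 3).

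Liver genes that differ between the sexes depend on the pattern of GH pulses and were counted as a further readout. Of 12 male-biased genes in liver, 4 were higher and 8 lower in 7c samples (median -0.05), including Gstp1 (1353 ± 274 CPM in 7c, SD, n = 6, and 1730 ± 397 CPM in vehicle, n = 4, log2 difference -0.35) and the fatty acid elongase gene Elovl3 (-0.56). The value of Elovl3 was -0.38 without 7c replicate 6 and -0.22 with a replicate block. Of 13 female-biased genes tested in liver, 12 were higher and 1 lower (median 0.33 against 0.00 over all genes), including the prolactin receptor gene Prlr (0.33, with 0.19 without vehicle replicate 4 and 0.53 without vehicle replicate 2) and Hao2 (0.85), which had 0.515 to 2.29 CPM in 7c livers. None of these passed the threshold, and the lowest adjusted p of both lists was 0.9996 in edgeR. In kidney 5 of 10 male-biased and 6 of 10 female-biased genes tested were higher. Bcl6, a STAT5-repressed gene of the male-biased list named here after its values were seen, had means of 42.1 CPM (7c) and 64.2 CPM (vehicle) in liver (log2 difference -0.61, -0.93 without vehicle replicate 2, adjusted p = 0.9996) and 57.3 and 108 CPM in kidney (-0.92, adjusted p = 0.997).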

How the data were processed

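Liver and kidney polyadenylated RNA of male UM-HET3 mice was sequenced by the authors from stranded libraries, with 6 7c and 4 vehicle samples per tissue. The authors deposited raw counts per Ensembl gene, whole numbers without normalization. Per the submitters' processing notes, reads were mapped to GRCm39 with STAR 2.7.11b and counted with featureCounts 2.0.6. The annotation release, the strand setting and the treatment of multimapping reads are not given in the sources used here. Igf1 (with Igf1os), Socs2, Cish and other members overlap genes of the opposite strand, and reads of such pairs may be mixed.

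Symbols, positions and lengths came from GENCODE vM39, which matched 56310 genes. Samples were grouped by their titles. The filter kept a gene where 50% or more of a tissue's samples reached 10 counts, and these genes were tested with edgeR 4.0.16 (R 4.3.3), TMM scaling and the quasi-likelihood F-test, treatment being the only term. The filter, the separate fit of each tissue and edgeR follow the study's methods, while TMM scaling and the quasi-likelihood test were chosen here. The treatment by tissue term was fitted on all 20 libraries, and the tissue contrast on the 8 vehicle libraries. CPM and log2 CPM (prior count of 2) were computed from the deposited counts. Exact permutation tests were two-sided, and correlations used 100000 resamples (scipy 1.17.1). The fits were tested on simulated counts. The members and the gene lists were chosen with earlier results of these data known. Named besides the members were the 2 genes of lowest unadjusted p per list and tissue (sex-biased lists in liver only) and the 3 genes most like Igf1, Socs2 and Cish in liver. The values of 1 gene named by this rule are not reported here. Alternatives were RLE size factors, DESeq2 1.42.0, the likelihood ratio test, limma-voom (limma 3.58.1), no filter, a replicate block, and each replicate left out. For 7c against vehicle the block had a term for each replicate number. The 7c replicates 5 and 6 had no vehicle sample of their number and did not inform that difference. The liver to kidney relations and scaling by library size alone were added after the data were seen.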

Additional observations from a re-analysis of the deposited data

Results flagged for a closer look

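Among 40 groups of 4 or 6 samples, the gap of 1 sample to its nearest neighbour, in CPM without logs, passed Dixon's 95% limit in 4. The rate of about 1 in 20 groups by chance holds for normally distributed values, and skewed CPM can exceed it. The gaps were not tested on log2 CPM, so that the count of 4 is not read as an excess. Igf1 in vehicle liver replicate 1 stood at 652 CPM, with the other vehicle livers at 480 to 499 CPM. Igfbp2 in 7c liver replicate 3 stood at 535 CPM, with the other 7c livers at 205 to 275 CPM. Cish in 7c liver replicate 2 stood at 16.7 CPM, with the others at 0.469 to 4.92 CPM, and Cish in 7c kidney replicate 2 stood at 31.6 CPM, with the others at 5.32 to 11.4 CPM. Both Cish values carry the same treatment and replicate number in the labels.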

How the results depend on the processing

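The count of axis transcripts past the threshold was 0 for 7c in liver and in kidney and for the interaction in all alternatives run, and 8 to 9 of 10 for vehicle liver against vehicle kidney. The count of all genes past it moved more: in liver 6 with DESeq2, 7 with the likelihood ratio test, 4 with no filter and 0 to 2 with a replicate left out, against 1; in kidney 18, 14 and 3, 2 with limma-voom and 0 to 3, against 0; for the interaction 16, 22, 11 and 0 to 6, against 1. With a replicate block it was 0 in liver and for the interaction, and Ghr in kidney turned to 0.088, Igfbp5 in the interaction to -0.041 and Socs2 between tissues to -0.043. Ghr in kidney was 0.0063 with no filter. With library size alone, Ghr and Socs2 between tissues turned to -0.023 and -0.29. The numbers shared by 7c and vehicle samples do not pair them (same-number correlations over 0.1 in 0 of 4 liver and 1 of 4 kidney pairs), while livers and kidneys of one number correlated over 0.1 in 7 of 10 pairs (0.011 to 0.26), 8 of 10 livers best with their own number, as a hint from the data.

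Leaving out a replicate turned small log2 differences of 7c against vehicle: Igf1 (-0.030 to 0.13), Igfbp3 (-0.17 to 0.20) and Igfbp5 (-0.23 to 0.25) in liver, Ghr (-0.048 to 0.051), Igfbp5 (-0.20 to 0.051) and Socs2 (-0.14 to 0.31) in kidney, and Igfals (-0.12 to 0.12), Igfbp3 (-0.28 to 0.010) and Igfbp5 (-0.21 to 0.32) in the interaction. It turned r in liver for Igf1 with Ghr (-0.22 to 0.34) and Igfals with Igfbp3 (-0.50 to 0.20), in kidney for Igf1 with Igfbp3 (-0.012 to 0.59), and between organs for Igf1 (-0.61 to 0.17), Igfals (-0.31 to 0.37), Ghr (-0.024 to 0.39) and Igfbp2 (-0.17 to 0.24). Between organs, r was 0.775 to 0.940 for Cish and 0.779 to 0.865 for Socs2. The cause of these shifts was not tested. Low counts limit Igfbp2 in kidney, Igf1r and Cish in liver.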
